A study of Mus musculus with 4 samples.

Results

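Sterol and fatty acid synthesis, together with the SREBP factors that drive it, was followed through 33 genes in colonic epithelial cells of mice with DSS-induced colitis. The genes were chosen by name for their place in the pathway, with earlier results of these data known: 7 enzymes of the mevalonate steps, 11 of the squalene and sterol ring steps, 7 genes of the SREBP factors and their control, the sterol carrier *Stard4*, and 7 enzymes of fatty acid synthesis. All 33 were among the 16015 genes listed, and all 33 passed the minimum mean of 10 normalized counts that 13983 genes reached and that a gene needed to be tested. The 4 libraries came from 2 control and 2 *Bmal1* cKO mice. The controls were *Bmal1 fl/fl* mice, labelled WT in the sample names, and the *Bmal1* cKO mice were *Villin-CreERT2; Bmal1 fl/fl*, in which Villin drives a tamoxifen-inducible Cre in the intestinal epithelium. Both groups thus carry the floxed *Bmal1* alleles on a C57BL/6 background, were 2 to 4 months old, drank 3% dextran sulfate sodium (DSS, a polysaccharide that injures the colonic epithelium) for 5 days and water for 2 days, and were sampled on day 7. Tamoxifen was injected for 5 consecutive days to delete *Bmal1*, the gene of a core circadian transcription factor. Whether the control mice were injected, and the time of day of collection, are not given in the sources used here.

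Cells build cholesterol from acetyl-CoA: the mevalonate steps make the isoprenoid units, which are joined into squalene, closed into a ring and trimmed to cholesterol. SREBP factors switch these genes on, and fatty acid synthesis with them. They are made as membrane proteins, are carried by SCAP from the endoplasmic reticulum to the Golgi when sterols run low, are cut there by a pair of proteases, and are held back by the INSIG proteins when sterols are plentiful. The intestinal epithelium renews itself fast and makes part of the membrane lipid it needs.

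SREBP factors bind sterol regulatory elements, and BMAL1 with its partner CLOCK binds E-boxes, so promoter stretches with letters of these kinds are shown for 6 of the genes. The RefSeq promoter table (GRCm38.p6) held 27 of the 33 genes, and no promoter is shown for *Scd2*, *Fdps*, *Sqle*, *Stard4*, *Fdft1* and *Scd1*. Capitals mark TCACNCCA (an SRE-like motif), CACGTG (an E-box) and CCAAT (the box bound by NF-Y, a usual neighbour of SREBP sites, which reads ATTGG on the other strand). Each motif was searched on both strands, and the 3 share no letters in these stretches. The first 3 stretches hold the SRE-like motif and are from all the genes in which it was found. The last 3 hold the E-box and are from the 3 E-box genes called higher in the *Bmal1* cKO libraries as deposited. The E-boxes of *Scap*, called lower, and *Dhcr7*, with no call, are not shown.
*Hmgcs1*, chr13:119690204-119690320, plus strand: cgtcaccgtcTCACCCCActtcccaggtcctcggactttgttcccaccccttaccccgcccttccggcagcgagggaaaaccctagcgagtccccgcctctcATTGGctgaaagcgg
*Msmo1*, chr8:64733660-64733765, minus strand: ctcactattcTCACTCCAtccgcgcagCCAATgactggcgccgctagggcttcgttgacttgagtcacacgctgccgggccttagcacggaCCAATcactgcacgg
*Srebf2*, chr15:82147097-82147148, plus strand: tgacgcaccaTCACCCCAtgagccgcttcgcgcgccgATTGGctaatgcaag
*Insig1*, chr5:28071301-28071326, plus strand: tgggtgaggtCACGTGgctccggtgg
*Sc5d*, chr9:42264310-42264408, minus strand: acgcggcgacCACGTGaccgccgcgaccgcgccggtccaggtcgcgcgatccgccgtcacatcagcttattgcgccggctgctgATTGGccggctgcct
*Hsd17b7*, chr1:169969264-169969358, minus strand: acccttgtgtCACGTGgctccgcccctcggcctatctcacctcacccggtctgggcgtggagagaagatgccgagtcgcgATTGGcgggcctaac

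The SRE-like letters were found in the promoters of 3 of the 27 genes (*Hmgcs1*, *Msmo1* and *Srebf2*), against 4.64% of the 12025 listed genes with a promoter in the table. The E-box was found in 5 of the 27 (*Hsd17b7*, *Sc5d*, *Dhcr7*, *Scap* and *Insig1*), or 18.5%, against 11% of the listed genes. The CCAAT box was found in 21 of the 27, or 77.8%, against 42.1%. A match describes the letters in a short window around the start and is not a binding site, and a window without a match says nothing of the factor. Of the 3 genes with the SRE-like letters, 2 were called higher in the *Bmal1* cKO libraries and 1 was called lower; of the 5 with an E-box, 3 were called higher, 1 was called lower and 1 had no call, where 29.0% of all genes were called higher and 27.7% lower. After a correction for GC content and length, described below, *Msmo1* and *Dhcr7* were called, both higher, and the other 6 had no call. Of all genes, 17.8% were called higher and 17.0% lower after this correction.

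Values are given as normalized counts, which are reads per gene after the authors' scaling for the size of each library, and the libraries held between 10312791 and 14156639 reads on listed genes. Groups were compared on log2(normalized count + 1) by limma, two-sided. Adjustment was by Benjamini-Hochberg over all 13983 genes, with a threshold of 0.05 on the adjusted p. The p-values set the group difference against the spread between mice of the same group, which limma draws toward a trend over all genes. *Bmal1* itself, under its other symbol *Arntl*, had 358 and 342 normalized counts in the controls and 341 and 289 in the libraries labelled *Bmal1* cKO (log2 fold change -0.16, standard error 0.14, limma adjusted p = 0.389). Reads summed over the gene cannot show the loss of single exons, so the directions below describe libraries by their *Bmal1* cKO label, and these are called cKO libraries here. Several marker lists moved with the groups. The 15 leukocyte markers summed to 14277 and 25886 normalized counts in the controls and to 2801 and 2691 in the cKO libraries, the 15 stromal and vessel markers to 20025 and 5195 against 609 and 756, and the 7 goblet markers to 236015 and 482846 against 71518 and 100522. The stromal marker *Des* was at 0 in cKO 1, and none of the leukocyte and goblet markers was. The 10 epithelial markers summed to 146468 and 169085 in the controls against 134215 and 141739, and the 7 crypt and dividing cell markers to 13288 and 13637 against 19291 and 16674 (2 of these 7 were called higher and 2 lower), so the labelled cell type was present in all 4 libraries. The 7 colonocyte markers summed to 34825 and 56235 in the controls against 50276 and 56318, with overlapping groups. Of 9 adipocyte markers, *Adipoq*, *Cfd*, *Lep*, *Plin1* and *Retn* were not listed, and the other 4 summed to 366 and 173 against 45.3 and 29.7, with *Plin4* at 0 in control 1. The part of these markers in the results on lipid synthesis was not tested, and in bulk samples fewer cells of a type and less RNA per cell cannot be told apart.

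Many transcripts for making cholesterol and fatty acids were more abundant in the cKO libraries. As deposited, the largest log2 fold changes were those of *Scd1*, *Scd2*, *Idi1* and *Stard4*. The test called 23 of the 33 genes, where it called 56.7% of all genes. In the cKO libraries 19 of the 33 were higher, where 29.0% of all genes were, and 4 were lower (*Mvd*, *Srebf2*, *Scap* and *Fasn*), where 27.7% were. The other 10 had no call. On the recovered reads edgeR called 19 higher and 2 lower (27.6% and 27.3% of all genes), and DESeq2 called 19 higher and 4 lower (23.4% and 24.1%). The median log2 fold change was 0.87 over the 33 genes and -0.04 over all genes tested. All 33 genes together summed to 43443 and 57242 normalized counts in the controls and to 115349 and 95076 in the cKO libraries, a ratio of means of 2.09. As a share of the reads on listed genes they took 0.373% and 0.477% in the controls and 0.841% and 0.682% in the cKO libraries. The 2 groups did not overlap on either scale. *Scd2* held a large part of this sum, and without *Scd1* and *Scd2* the ratio was 1.73.

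**Figure D1:**
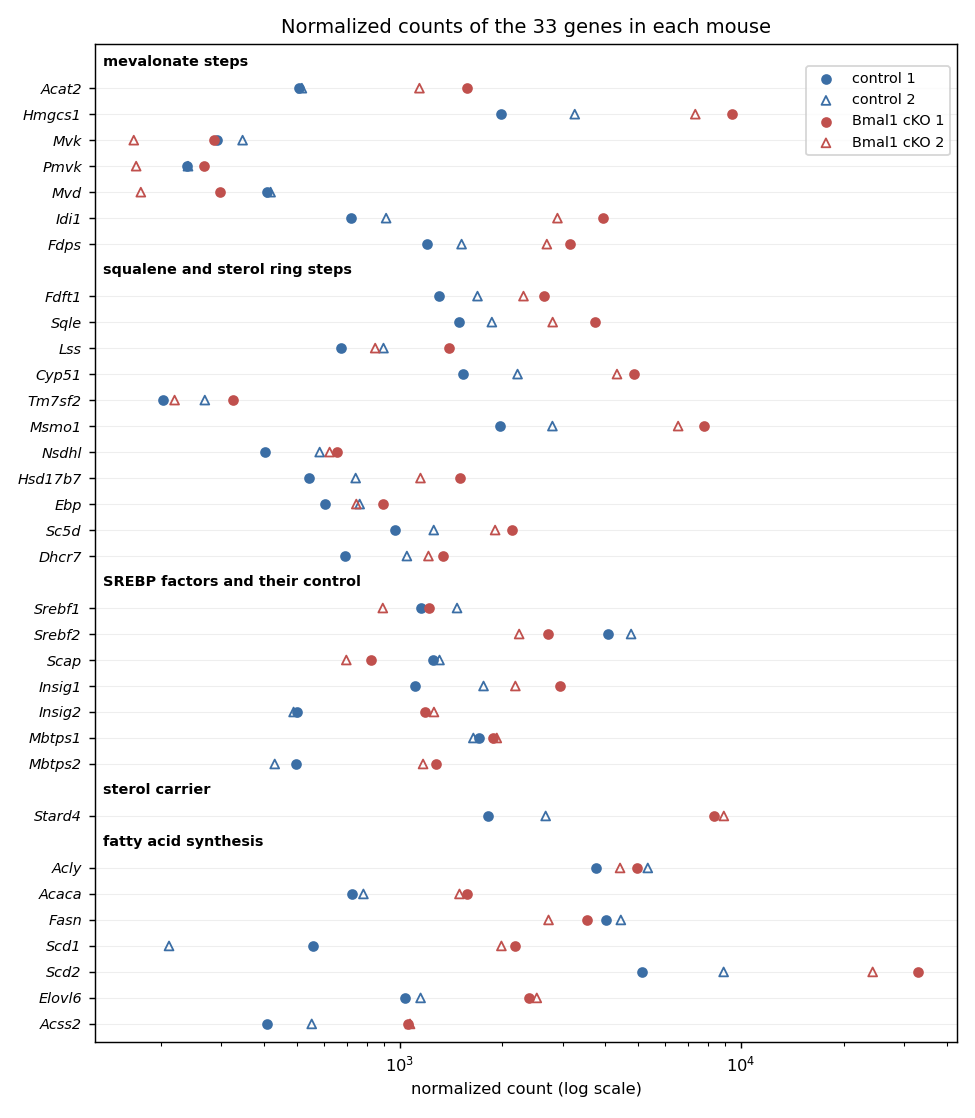
Normalized counts of the 33 genes (log axis) in each of the 4 mice, with genes grouped by role; blue marks the controls, red the *Bmal1* cKO libraries, circles the first and triangles the second mouse of a group. In 22 genes both cKO libraries lie to the right of both controls and in 5 both lie to the left.

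The 2 cKO libraries were above both controls in 22 of the 33 genes, where this held for 40.3% of all genes tested, and below both controls in 5 (*Mvk*, *Mvd*, *Srebf2*, *Scap* and *Fasn*), where this held for 41.7%. Summed by role, the rise was 2.67 for the mevalonate steps (6280 ± 1313 normalized counts in the controls and 16769 ± 3077 in the cKO libraries, mean ± SD, n = 2 mice each). It was 2.04 for the squalene and sterol ring steps (12254 ± 2650 against 24982 ± 3245) and 2.36 for fatty acid synthesis (18484 ± 4072 against 43629 ± 7214). None of these 3 sums overlapped between the groups, and none is corrected for GC content. In the mevalonate sum *Hmgcs1* alone had a mean of 2619 in the controls and 8389 in the cKO libraries. *Mvk*, *Pmvk* and *Mvd* were not called higher. Without *Scd1* and *Scd2* the other 5 genes of fatty acid synthesis summed to 9935 and 12261 in the controls and to 13503 and 12239 in the cKO libraries, which overlapped, with a ratio of means of 1.16 (0.993 when scaled to the library total). The genes of the SREBP factors and their control summed to 10295 and 11865 in the controls and to 12064 and 10365 in the cKO libraries. These ranges overlapped, and the ratio of means was 1.01, or 0.867 when each library was scaled to its own total of reads.

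**Figure D2:**
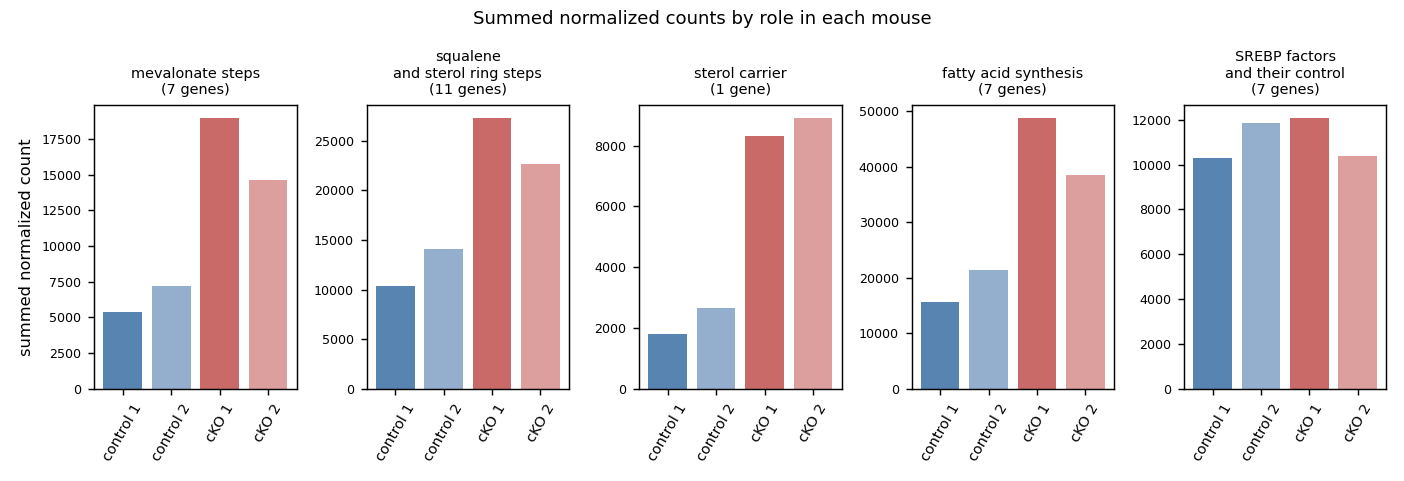
Summed normalized counts by role in each mouse (linear axes from 0, a scale of its own for each panel; blue bars are controls, red bars *Bmal1* cKO libraries). The cKO bars stand above both control bars in the first 4 panels and overlap them in the panel of the SREBP factors and their control.

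The log2 fold change in these libraries followed the GC content of the gene, and this touches every gene described. Spearman's rho between the 2 was -0.77 across the 33 genes and -0.62 across 13975 tested genes whose GC content is known. Points that are genes of the same 4 libraries share depth and base composition, so rho is a description here. In the 10 GC classes of all tested genes the median log2 fold change went from 1.13 in the lowest class to -1.39 in the highest, where 74.6% of all genes were called lower. The 33 genes had a median GC content of 47.5%, against 49.1% for all genes, and ran from 39.7% in *Mbtps2* to 59.1% in *Mvd*. This trend runs between the groups, and in these libraries the trend and the groups cannot be told apart.

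Set against the genes of its own GC class, 30 of the 33 genes lay above the class median, and 22 of them above the upper quartile. The 3 that did not lie above the median were *Nsdhl*, *Ebp* and *Scap*. After each library was corrected for GC content and length by a loess curve, 18 of the 33 genes were higher in the cKO libraries, where 17.8% of all genes were. By limma 0 were lower, also at an unadjusted p under 0.05, where 17.0% of all genes were lower at the adjusted threshold. Calls in either direction covered 34.8% of all genes after correction. The corrected median was 0.68, against -0.02 for all genes. Of the 18, 14 had also been called higher without the correction, and 4 were called higher only with it (*Srebf1*, *Dhcr7* and *Mbtps1*, which had no call before, and *Fasn*, which had been called lower). The lower calls of *Mvd*, *Srebf2* and *Scap* were lost. A higher call was lost in 5 genes (*Hmgcs1*, *Hsd17b7*, *Sc5d*, *Insig1* and *Mbtps2*), of which *Hmgcs1* missed the threshold narrowly. Of all genes tested, 4059 were called higher as deposited. Among those, 1716 were also called higher after correction and 2225 had no call after it. A further 773 of all genes were called higher only with the correction. Corrected values are given below beside the values as deposited.

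**Figure D3:**
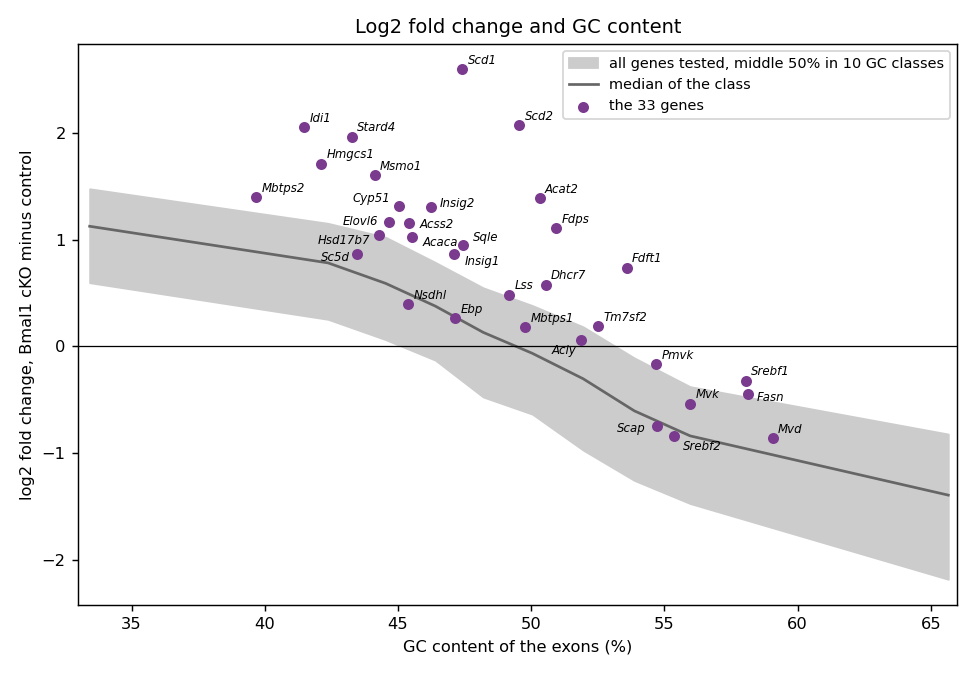
Log2 fold change (*Bmal1* cKO minus control) of the 33 genes against the GC content of their exons in percent; the line joins the medians of 10 GC classes of all tested genes and the grey band spans the middle 50% of each class. 30 of the 33 genes lie above the median of their class, among them GC-rich *Fasn* and *Srebf1*, which lie below 0.

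Of the mevalonate steps, 4 of 7 genes were higher and 1 was lower, where 29.0% and 27.7% of all genes were, and after correction 3 were higher and none lower, where 17.8% and 17.0% of all genes were. *Acat2*, the cytosolic thiolase that joins acetyl-CoA units (not the sterol acyltransferase of the same nickname), had 505 and 517 normalized counts in the controls and 1571 and 1142 in the cKO libraries. The log2 fold change of *Acat2* was 1.39 (standard error 0.17, limma adjusted p = 0.00177) and 1.44 after correction (limma adjusted p = 0.00564). Both cKO libraries were thus above both controls. Of the 75-base stretches of *Acat2*, 33.9% also occur in *Acat3*, so reads of the pair may have been split and the level is uncertain. *Hmgcs1* (chr13:119690379-119708260, plus strand), the HMG-CoA synthase, had 1981 and 3257 against 9433 and 7345. The groups did not overlap, and the log2 fold change was 1.71 (standard error 0.26, limma adjusted p = 0.00366). After correction it was 0.86 and missed the threshold (limma adjusted p = 0.0565), and without cKO 1 it was 1.53 (uncorrected, limma adjusted p = 0.0519).

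*Idi1* (chr13:8885501-8892451), the isomerase that makes the 2 isoprenoid units interchangeable, had 721 and 912 normalized counts in the controls and 3940 and 2898 in the cKO libraries. This was a log2 fold change of 2.06 (standard error 0.19, limma adjusted p = 0.000852), the largest of the 18 sterol-making enzymes as deposited. It was 1.17 after correction (limma adjusted p = 0.0119), below the corrected values of *Acat2*, *Fdps* and *Fdft1*. Of its 75-base stretches 23.6% occur in other genes, most of them in *Gm13502*. *Fdps*, which builds farnesyl diphosphate, the branch point to sterols and to prenylated proteins, had 1206 and 1518 against 3151 and 2698. This gave a log2 fold change of 1.11 (standard error 0.15, limma adjusted p = 0.00239) and 1.25 after correction (limma adjusted p = 0.00476), with 23.5% of its stretches found elsewhere.

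The 3 enzymes between *Hmgcs1* and *Idi1* that were followed were not called higher, and all 3 are GC-rich (54.7% to 59.1%). *Mvk*, mevalonate kinase, had 291 and 346 normalized counts against 286 and 166, and *Pmvk*, phosphomevalonate kinase, had 238 and 240 against 267 and 169. Neither passed the test, with log2 fold changes of -0.54 and -0.17 (0.27 and 0.48 after correction, neither past the threshold). *Mvd*, the decarboxylase that follows them, had 410 and 418 in the controls and 297 and 174 in the cKO libraries, both below both controls. Its log2 fold change was -0.86 (standard error 0.27, limma adjusted p = 0.0385), a call that was lost without control 1, control 2 or cKO 2 (limma adjusted p up to 0.171), and with all libraries by edgeR (adjusted p = 0.0512) and under epithelial marker scaling (limma adjusted p = 0.0658). After correction the value was 0.42 (limma adjusted p = 0.236), and in its GC class the median of all genes was -1.39.

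Of the squalene and sterol ring steps, 6 of 11 genes were higher and none was lower (29.0% and 27.7% of all genes), and after correction 5 were higher and none lower (17.8% and 17.0% of all genes). All 11 values were above 0 as deposited, from 0.19 in *Tm7sf2* to 1.60 in *Msmo1*. *Msmo1* (chr8:64718139-64733792), an oxidase of the demethylation of the ring, had 1968 and 2801 normalized counts in the controls and 7790 and 6542 in the cKO libraries. The groups were far apart, and the log2 fold change was 1.60 (standard error 0.19, limma adjusted p = 0.00176) and 0.95 after correction (limma adjusted p = 0.0191). Its promoter is among those shown above with an SRE-like motif. *Cyp51*, the lanosterol demethylase, had 1533 and 2214 against 4861 and 4331, a log2 fold change of 1.32 (standard error 0.19, limma adjusted p = 0.00304) and 0.76 after correction (limma adjusted p = 0.0316). It overlaps *Akap9* in 2.07% of its stretches.

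The enzymes that make squalene and its epoxide rose as well. *Fdft1*, squalene synthase, had 1299 and 1690 normalized counts against 2649 and 2305, and its log2 fold change went from 0.74 (standard error 0.15, limma adjusted p = 0.0111) to 1.23 after correction (limma adjusted p = 0.00515). It shares 21.8% of its stretches with other genes, mostly *Ctsb*, so its level is uncertain, and the uncorrected call was lost without control 1 or without either cKO library (limma adjusted p up to 0.0935). *Sqle*, squalene epoxidase, the first oxygen-using step and a point of control of the pathway, had 1495 and 1862 against 3731 and 2806. This was a log2 fold change of 0.96 (standard error 0.18, limma adjusted p = 0.00742) and 0.68 after correction (limma adjusted p = 0.0348), and the uncorrected call was lost without control 1 or cKO 1 (limma adjusted p up to 0.0634). *Lss*, which closes squalene epoxide into the ring, had 671 and 896 against 1392 and 848. One cKO library was below a control, and *Lss* had no call (log2 fold change 0.49, limma adjusted p = 0.17, and 0.54 after correction, limma adjusted p = 0.161).

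The later ring steps were less uniform. *Hsd17b7*, a ketoreductase of the demethylation, had 544 and 743 normalized counts in the controls and 1505 and 1150 in the cKO libraries, and *Sc5d*, a sterol desaturase, had 966 and 1258 against 2135 and 1903. Both were called higher, at log2 fold changes of 1.05 (limma adjusted p = 0.00821) and 0.87 (limma adjusted p = 0.00592). Neither call held after correction (0.41 and 0.15, limma adjusted p = 0.171 and 0.48), and both were lost without cKO 1, that of *Hsd17b7* also without control 1 (limma adjusted p up to 0.0714). *Dhcr7*, the last enzyme of one branch to cholesterol, had 693 and 1049 against 1338 and 1214. It went from 0.58 (limma adjusted p = 0.0587) to 0.68 (limma adjusted p = 0.047) with correction. The corrected call was lost when a block for the mouse number was added (limma adjusted p = 0.0588). With 1 library left out the corrected value ran from 0.41 to 0.97. *Nsdhl*, a dehydrogenase of the demethylation, and *Ebp*, a sterol isomerase, had no call either way. *Nsdhl* had 404 and 583 against 656 and 623 (log2 fold change 0.40, and -0.10 after correction), and *Ebp* had 605 and 763 against 896 and 746 (0.27, and -0.038 after correction). *Tm7sf2*, a sterol reductase, had 203 and 269 against 324 and 219, and also had no call, with overlapping groups (0.19, and 0.54 after correction).

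**Figure D4:**
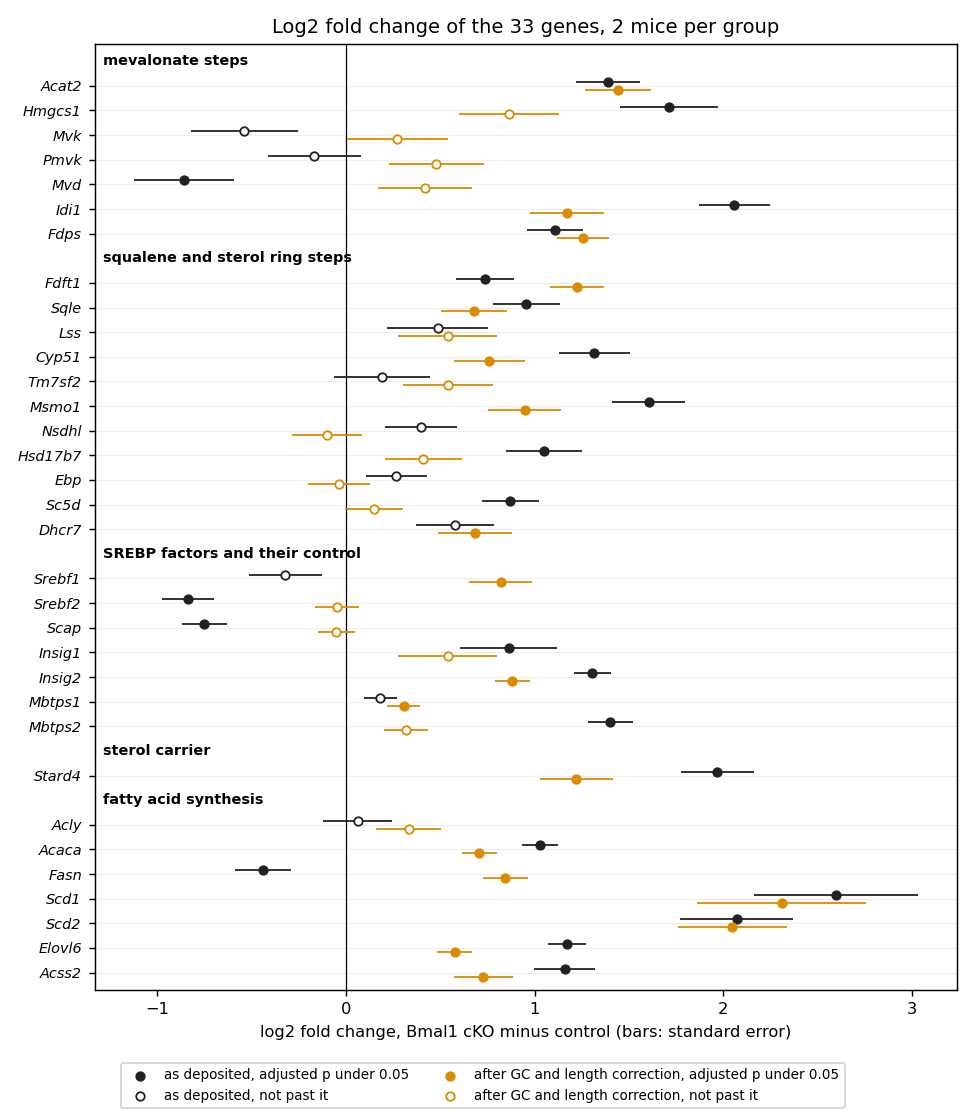
Log2 fold change (*Bmal1* cKO minus control, n = 2 mice per group) of the 33 genes with its standard error, as deposited in black and after the GC and length correction in orange; filled points have a limma adjusted p under 0.05. 19 black points are filled above 0 and 4 below, and 18 orange points are filled, all above 0.

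Of the genes of the SREBP factors and their control, 3 of 7 were higher and 2 lower as deposited, where 29.0% and 27.7% of all genes were, and after correction 3 were higher and none lower, where 17.8% and 17.0% of all genes were. *Srebf2* (chr15:82147181-82205379), the factor that chiefly drives cholesterol synthesis, had 4081 and 4763 normalized counts in the controls and 2722 and 2238 in the cKO libraries. Both cKO libraries were below both controls, and the log2 fold change was -0.84 (standard error 0.14, limma adjusted p = 0.00486). After correction it was -0.05 (limma adjusted p = 0.763), and the median of its GC class was -0.84. *Scap* (chr9:110333288-110384950), which carries SREBP to the Golgi, had 1248 and 1308 against 826 and 697, a log2 fold change of -0.75 (standard error 0.12, limma adjusted p = 0.00408). It too was near 0 after correction (-0.05, limma adjusted p = 0.7), and 8.27% of its stretches are shared with the overlapping *5830462I19Rik*. *Srebf1* (chr11:60199089-60222581), which chiefly drives fatty acid synthesis, had 1153 and 1472 against 1218 and 892, with overlapping groups. Its value was -0.32 (standard error 0.19, limma adjusted p = 0.203), while after correction it was 0.82 (limma adjusted p = 0.0189), so its direction depends on the correction.

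The ratio of *Srebf1* to *Srebf2*, each per kb of exon, was 0.360 and 0.394 in the controls and 0.571 and 0.508 in the cKO libraries. *Srebf1* was the lesser in all 4 libraries and came closer to *Srebf2* in both cKO libraries; these genes have GC contents of 58.1% and 55.4%. Reads were summed over each gene as a whole, so the transcripts of *Srebf1* cannot be told apart.

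The INSIG genes were both higher in the cKO libraries. *Insig2* (chr1:121304353-121332589), which holds SCAP in the endoplasmic reticulum, had 498 and 489 normalized counts in the controls and 1183 and 1260 in the cKO libraries. The mice of a group were close together and the groups far apart, and the log2 fold change was 1.30 (standard error 0.10, limma adjusted p = 0.000573) and 0.88 after correction (limma adjusted p = 0.00422). *Insig1* (chr5:28071363-28078662), its paralogue and itself a target of SREBP, had 1106 and 1760 against 2956 and 2182. Its log2 fold change was 0.86 (standard error 0.26, limma adjusted p = 0.0345) and 0.54 after correction (limma adjusted p = 0.161). The uncorrected call was lost when each library was scaled to its own total (0.64, limma adjusted p = 0.0758). With 1 library left out the uncorrected value ran from 0.53 to 1.20. Per kb of exon *Insig1* was 2.49 and 4.04 times *Insig2* in the controls and 2.81 and 1.94 times in the cKO libraries, so these ranges overlapped.

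The Golgi proteases that release SREBP differed in level. *Mbtps2*, the second to cut, had 498 and 430 normalized counts in the controls and 1280 and 1171 in the cKO libraries, which gave 1.40 on the log2 scale (standard error 0.12, limma adjusted p = 0.000723). It is the most GC-poor of the 33 genes, the median of its GC class was 1.13, and after correction it had 0.32 and no call (limma adjusted p = 0.089). Its exons share 27.7% of their stretches with other genes, chiefly *Yy2*, so its level is uncertain. *Mbtps1*, the first to cut, had 1711 and 1643 against 1880 and 1925, a difference of 0.18 with no call (limma adjusted p = 0.121). It passed narrowly after correction at 0.30 (limma adjusted p = 0.0443). The corrected call was lost when a block for the mouse number was added (limma adjusted p = 0.0776). With 1 library left out the corrected value ran from 0.26 to 0.36. Per kb *Mbtps1* was 3.30 and 3.66 times *Mbtps2* in the controls and 1.41 and 1.58 times in the cKO libraries, as deposited. After correction their log2 fold changes were 0.30 and 0.32, so the difference between the pair is that of the uncorrected values alone.

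*Stard4*, which carries cholesterol between membranes in the cytosol and is a target of SREBP, had 1812 and 2677 normalized counts in the controls and 8334 and 8904 in the cKO libraries. Both cKO libraries were more than 3 times the higher control, and the log2 fold change was 1.97 (standard error 0.19, limma adjusted p = 0.00102) and 1.22 after correction (limma adjusted p = 0.00999). None of its 75-base stretches occurs in another gene.

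Of the genes of fatty acid synthesis, 5 of 7 were higher and 1 was lower, against 29.0% and 27.7% of all genes, and after correction 6 were higher and none lower, against 17.8% and 17.0%. *Scd2* (chr19:44293674-44306864), a stearoyl-CoA desaturase that makes monounsaturated fatty acids, had 5112 and 8892 normalized counts in the controls and 33048 and 24303 in the cKO libraries. The groups did not overlap, and the log2 fold change was 2.07 (standard error 0.30, limma adjusted p = 0.00312) and 2.05 after correction (limma adjusted p = 0.00774). *Scd1* (chr19:44394455-44407879), its neighbour with the same activity, had 558 and 211 against 2179 and 1986. Its log2 fold change was the largest of the 33 genes, 2.60 (standard error 0.44, limma adjusted p = 0.0052), and 2.31 after correction (limma adjusted p = 0.017). The controls differed from each other by more than for any other of the 33 genes, and the uncorrected value was 3.30 without control 1 and 1.90 without control 2. The uncorrected call was lost without cKO 1 or cKO 2 (limma adjusted p = 0.0661 and 0.0611). Per kb *Scd2* was 8.21 and 37.7 times *Scd1* in the controls and 13.6 and 11.0 times in the cKO libraries. Only 1.78% of the stretches of *Scd2* and 3.15% of those of *Scd1* occur in other genes, so the pair can be told apart.

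*Acaca* (chr11:84129672-84401651), the carboxylase that makes malonyl-CoA and commits carbon to fatty acids, had 725 and 783 normalized counts against 1577 and 1496. The rise was 1.03 on the log2 scale (standard error 0.10, limma adjusted p = 0.000894) and 0.71 after correction (limma adjusted p = 0.00674), and 26.8% of its stretches occur elsewhere, chiefly in *Gm5182*. *Elovl6* (chr3:129532355-129638495), which lengthens saturated and monounsaturated chains, had 1033 and 1151 against 2395 and 2521, and *Acss2*, which makes acetyl-CoA from acetate, had 409 and 552 against 1054 and 1072. Both groups were apart in each. The log2 fold changes were 1.17 (standard error 0.10, limma adjusted p = 0.000701) and 1.16 (standard error 0.16, limma adjusted p = 0.00284), and both held after correction at 0.58 and 0.73 (limma adjusted p = 0.0105 and 0.0221).

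*Fasn* (chr11:120805846-120824547), the synthase that builds palmitate, differed from these. It had 4010 and 4444 normalized counts in the controls and 3537 and 2729 in the cKO libraries, both below both controls. Its log2 fold change was -0.44 (standard error 0.15, limma adjusted p = 0.0498), just past the threshold. The call was lost without control 1, control 2 or cKO 2 (limma adjusted p up to 0.214). It was also lost with all libraries kept under a pseudocount of 5, without the filter, with TMM or epithelial marker scaling and by edgeR (adjusted p from 0.0516 to 0.243). After correction it was 0.84 and higher (limma adjusted p = 0.00764). With a GC content of 58.1% it belongs to the GC class in which 0.572% of all genes were called higher, so its direction depends on the correction. *Acly*, which makes cytosolic acetyl-CoA from citrate, had 3758 and 5330 against 4940 and 4421, with overlapping groups and no call with or without correction (log2 fold change 0.06, limma adjusted p = 0.783, and 0.33 after correction).

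Levels can be compared between the genes only per length of exon. On that scale *Scd2* was the highest of the 33 in both groups, at a mean of 1282 normalized counts per kb in the controls and 5248 in the cKO libraries. In the controls *Acly* (861), *Srebf2* (616) and *Hmgcs1* (570) followed, and in the cKO libraries *Hmgcs1* (1826), *Stard4* (1543) and *Msmo1* (1166) did. *Srebf2* went from rank 3 to rank 18 and *Idi1* from rank 15 to rank 6. These levels are not corrected for GC content, and the difference in *Srebf2* was near 0 after correction. The lowest level was that of *Acaca* in the controls (44.1) and of *Tm7sf2* in the cKO libraries (61.7), but the exon length of a gene counts all its transcripts, which lowers the value of genes with many.

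The mice of one group also differed from each other in a shared way. Control 2 was above control 1 in 29 of the 33 genes, where this held for 48.9% of all genes tested. The 29 included all 18 enzymes of the mevalonate and ring steps, though by only 0.032 in *Acat2*, 0.030 in *Mvd* and 0.0088 in *Pmvk* (log2). In the cKO group, cKO 1 was above cKO 2 in 28 of the 33 genes, where this held for 49.5% of all genes, and again in all 18 of these enzymes. The median absolute log2 difference between the mice of a group was 0.35 in the controls and 0.25 in the cKO group over the 33 genes, against 0.20 and 0.20 over all genes. The exceptions in the controls were *Scd1*, *Insig2*, *Mbtps1* and *Mbtps2*, and in the cKO group *Stard4*, *Insig2*, *Mbtps1*, *Elovl6* and *Acss2*. Because these genes moved together within a group, they are not independent observations of the difference between the groups.

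The calls that changed least were those of 11 genes, *Acat2*, *Idi1*, *Fdps*, *Msmo1*, *Insig2*, *Stard4*, *Acaca*, *Scd1*, *Scd2*, *Elovl6* and *Acss2*. These 11 were called higher in each of the 13 alternative ways of processing that kept all 4 libraries. The share of all genes that did so is not given here. Without each library in turn, the uncorrected log2 fold changes of the 11 ran from 0.94 (*Fdps*) to 3.30 (*Scd1*). With the correction and without cKO 1, no gene of the whole table passed the test (limma; 4857 of the 13983 at an unadjusted p under 0.05), so a call after correction could not be checked against that library.

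The other genes of the pathway were read from 4 lists, of which 82 genes were tested, and 35 of these were higher and 20 lower in the cKO libraries, where 29.0% and 27.7% of all genes were. After correction 27 were higher and 12 lower, where 17.8% and 17.0% of all genes were. Among 25 other lipid synthesis enzymes 13 were higher and 4 lower, and after correction 11 were higher and 4 lower, against the same shares of all genes. *Elovl7*, an elongase, had 1108 and 1022 normalized counts in the controls and 4878 and 4639 in the cKO libraries (log2 fold change 2.16, limma adjusted p = 0.000533, and 1.34 after correction, limma adjusted p = 0.00302). *Acacb*, the carboxylase whose malonyl-CoA restrains fatty acid oxidation, had 656 and 533 against 112 and 115 (-2.37, limma adjusted p = 0.000537). *Acacb* and its paralogue *Acaca* thus lay on opposite sides, and both kept their side after correction (-1.29 and 0.71, limma adjusted p = 0.00686 and 0.00674).

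Of the genes of sterol uptake, transport, storage and export, 6 of 20 were higher and 8 lower, where 29.0% and 27.7% of all genes were, and 3 were higher and 4 lower after correction, where 17.8% and 17.0% of all genes were, so the corrected counts and the count of higher genes lay near the share over all genes. *Scarb1*, a receptor for high-density lipoprotein, had 425 and 517 normalized counts in the controls and 157 and 107 in the cKO libraries (log2 fold change -1.85, limma adjusted p = 0.00209, and -1.54 after correction). *Osbpl8*, an oxysterol-binding protein at membrane contacts, had 374 and 339 against 894 and 964 (1.38, limma adjusted p = 0.000682), which did not pass after correction (0.35, limma adjusted p = 0.058). Among 20 regulators of lipid synthesis 8 were higher and 6 lower, and after correction 7 were higher and 3 lower, against the same shares of all genes. *Nr1h2*, the liver X receptor beta, had 1086 and 1039 against 262 in both cKO libraries (-2.01, limma adjusted p = 0.000533, and -0.78 after correction, limma adjusted p = 0.00754). *Rnf139*, a ubiquitin ligase of the endoplasmic reticulum, had 314 and 335 against 879 and 837 (1.40, limma adjusted p = 0.000619, and 0.55 after correction, limma adjusted p = 0.0171).

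Fatty acid oxidation, which breaks down what the synthesis genes build, had 8 of 17 genes higher and 2 lower, against 29.0% and 27.7% of all genes, and 6 higher and 1 lower after correction, against 17.8% and 17.0%. *Hadhb*, a subunit of the mitochondrial trifunctional protein, had 1787 and 1737 normalized counts in the controls and 4111 and 4648 in the cKO libraries (log2 fold change 1.31, limma adjusted p = 0.00059), and did not pass after correction (0.30, limma adjusted p = 0.0598). *Eci2*, an isomerase of the oxidation of unsaturated chains, had 406 and 370 against 277 and 222 (-0.64, limma adjusted p = 0.0211, and -0.83 after correction, limma adjusted p = 0.0178).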

How the data were processed

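Bulk RNA sequencing of colonic epithelial cells was available for 2 control and 2 *Bmal1* cKO mice. Per the labels and the study's methods the authors aligned reads to GRCm38 with STAR and normalized them with DESeq2; the read counter, its use of strand and the annotation release are not given in the sources used here. Each library's deposited values are a signal: the authors divided its counts per gene by a DESeq2 size factor. Of these values 100% were whole multiples of 1 read (within 0.05 of a read). The deposited columns of the authors' comparison (mean, log2 fold change, its standard error, statistic, p-value and adjusted p-value) were not used. Libraries were grouped by their labels.

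All genes reaching a mean of 10 (13983) were compared on log2(value + 1) by limma 3.58.1 in R 4.3.3 (trend on the mean, two-sided, Benjamini-Hochberg over these genes, threshold 0.05). On this scale changes of genes with low counts come out too small. Exon length, GC content, gene coordinates and shared 75-base stretches came from GENCODE on GRCm38, and GC content was known for 13975 of the tested genes. The correction took out of each library a robust loess curve (span 0.3) of its deviation from the gene mean on GC content and log2 length. Alternatives were pseudocounts of 0.5 and 5, no filter, a mean of at least 50, scaling to the library total or by TMM, a threshold of 0.01, edgeR 4.0.16 and DESeq2 1.42.0 on the recovered reads, a block for the mouse number, and leaving out each library. Scaling to the epithelial markers was added after seeing the data. The steps were tested on simulated data.

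The 33 genes and the lists were chosen with earlier results of these data known. All 33 are named, and from each list of other pathway genes the one that rose most and the one that fell most among genes with an adjusted p under 0.05 and a mean of at least 100. With 2 mice per group, no outlier test was possible. Some genes of the pathway are not reported here.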

Additional observations from a re-analysis of the deposited data

How the results depend on the processing

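Of the 33 genes, 10 changed sign in some alternative that kept all libraries. The correction of GC content and length turned *Fasn* to 0.84, *Srebf1* to 0.82, *Pmvk* to 0.48, *Mvd* to 0.42, *Mvk* to 0.27, *Nsdhl* to -0.10 and *Ebp* to -0.038 (log2 fold changes). It left 0 of the 33 genes lower in place of 4, where 17.0% of all genes were lower in place of 27.7%. The median of the 33 was 0.68 in place of 0.87, and 12 other pathway genes were lower in place of 20. Scaling to the library total shifted the median of all genes from -0.04 to -0.26 and that of the 33 genes to 0.64, put *Acly* at -0.16, *Mbtps1* at -0.044 and *Tm7sf2* at -0.035, and set the summed SREBP factors and their control at 0.867. Scaling to the epithelial markers, added after seeing the data, shifted the median of all genes to 0.15 and that of the 33 to 1.06. It gave 22 of the 33 genes higher and 2 lower, where 32.5% and 22% of all genes were, and 13 other pathway genes lower. It put *Pmvk* at 0.021 and *Arntl* at 0.034. The lower calls among the 33 genes were 2 with edgeR, where 27.3% of all genes were lower. At a threshold of 0.01 they were 2, against 15.3% of all genes, and 9 other pathway genes were lower. Pseudocounts, filters, TMM and DESeq2 gave 19 higher and 3 or 4 lower. Over all genes these settings gave 23.4% to 35.1% higher and 24.1% to 28.6% lower. Scaling to the library total gave 18 and 4, against 22.1% and 34.9% of all genes.

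The labels number the mice in each group, but the deviations of same-numbered mice did not go together (correlation -0.09), so the numbers only name the mice. A block for the replicate number gave 20 higher and 3 lower (27.9% and 27.1% of all genes). With the block and the correction together 14 were higher and 0 lower (15.2% and 14.2% of all genes), 11 other pathway genes were lower, and the fold changes and the median of 0.68 were those of the correction alone.

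Leaving out a mouse leaves 1 library in its group, which is then assumed to vary like the other group. In each of these fits fewer of all genes were called, in either direction, than in the matching fit with all libraries. The counts of calls below therefore cannot show whether the pathway genes were less stable than other genes. With and without the correction, 0 to 21 of the 33 genes were then higher and 0 to 5 lower, with a median from 0.51 to 1.08, and of the other pathway genes 0 to 29 were higher and 0 to 12 lower. The lowest counts are those of the corrected fit without cKO 1, in which no gene of the table passed, and without cKO 2, in which 3 of the 33 did. Without the correction 12 to 21 were higher. The genes that changed sign ranged from -0.19 to 0.57 (*Acly*), -0.20 to 0.43 (*Ebp*), -0.63 to 0.99 (*Fasn*), -1.24 to 0.77 (*Mvd*), -0.93 to 0.63 (*Mvk*), -0.35 to 0.66 (*Nsdhl*), -0.50 to 0.81 (*Pmvk*), -0.036 to 1.06 (*Sc5d*), -0.87 to 0.028 (*Scap*), -0.55 to 0.998 (*Srebf1*), -0.98 to 0.053 (*Srebf2*) and -0.091 to 0.79 (*Tm7sf2*). The summed SREBP factors and their control ranged from 0.935 to 1.09, and *Stard4* from 3.22 to 4.76 as a ratio of means. The cause of the GC trend was not tested, and 2 mice per group limit every call.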
